A study of Mus musculus with 8 samples.

Results

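The genes described here are 30 of the 27844 gene names on a whole mouse genome array. They comprise 18 enzymes of cholesterol synthesis, 5 regulators of the SREBP pathway (Srebf1, Srebf2, Scap, Insig1 and Insig2), the sterol carrier Stard4 and 6 genes of fatty acid synthesis and its NADPH supply. The list is matched by gene name, with no threshold on measured values, and was drawn up with earlier results of these data known. Each gene is represented by its brightest probe, and 2 were matched through an older symbol, Sc4mol for Msmo1 and Mod1 for Me1.

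Cholesterol is built from acetyl-CoA through mevalonate, isoprenoid units, squalene and lanosterol, and fatty acids are built from the same acetyl-CoA. The transcription factors of this pathway, the SREBPs, are made as precursors in the membrane of the endoplasmic reticulum. When sterol is low, Scap carries them to the Golgi apparatus, where proteases free the active factor, and when sterol is high, Insig proteins hold Scap back. The product of Srebf2 acts mainly on genes of cholesterol synthesis and that of Srebf1 mainly on genes of fatty acid synthesis. The small intestinal epithelium both takes up sterol from food and makes it.

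RNA was compared on 8 two-colour arrays in which both RNAs of a pair were hybridised together and the dyes were then swapped on another array. In 4 arrays, epithelial cells with high GFP (GFPhi) were compared with cells with low GFP (GFPlo), sorted by flow cytometry from intestines of Lgr5-EGFP-ires-CreERT2 mice, in which the promoter of the stem cell gene Lgr5 drives GFP. There were 2 sorts, each pooling 3 mice. In the other 4 arrays, small intestinal epithelium of Ah-Cre/Ascl2floxed/floxed mice was compared with that of Ah-Cre/Ascl2floxed/wt mice at day 3 or day 5 after induction. Both arms of this comparison carry the Ah-Cre transgene, whose promoter responds to xenobiotics, and the controls, which the labels also call wildtype, keep 1 floxed copy of the transcription factor gene Ascl2. The sources used here give neither the age of the mice nor the number of animals behind each deletion RNA. Each comparison therefore has n = 2 RNA pairs, and for the deletion these are also the 2 days. All p-values measure only the spread between these pools or extracts, which for the deletion includes the change between the days. In the main fit, sorts and deletion share 1 estimate of spread per gene. The difference between the days therefore also enters the p-values of the sorts. In such bulk RNA, a change in the share of cells of a type and a change in RNA per cell cannot be told apart.

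Between 35.5% and 44.6% of probes were well above background in a channel of the sort arrays, and between 55% and 66.9% in a channel of the deletion arrays. Testing was limited to genes with a probe detected well above background on all arrays in either RNA of a comparison, which kept 10469 genes and 27 members in the sorts (not Lss, Scd1 or Me1) and 15987 genes and all 30 members in the deletion. Ascl2 had a log2 ratio of -1.33 on day 3 and -1.32 on day 5, and the GFPhi over GFPlo log2 ratio of Lgr5 was 2.10 and 1.61 in the sorts. No source used here says whether the Ascl2 probe lies in the deleted part. Each RNA pair has a slide and a scan of its own, so that slide, scan and RNA pair cannot be told apart. Sort 2 gave smaller ratios than sort 1, with an SD over tested genes of 0.206 and 0.216 on its arrays against 0.32 and 0.301, and dim probes sat near 0 there. In what follows, pairs of sort values are given with the array that had GFPhi RNA in Cy3 first, pairs of day 3 values with the array that had deleted RNA in Cy3 first, and pairs of day 5 values with the Cy5 array first.

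The deletion arrays showed the sterol enzymes higher in the deleted epithelium on both days. The median of the 18 enzymes was 0.27 on the log2 scale on day 3 and 0.63 on day 5, where all genes tested had a median of 0.00 on day 3 and -0.01 on day 5. Of the 18, 11 were higher on both day 3 arrays and 15 on both day 5 arrays, and 11 were higher on all 4. Of all 15987 genes tested, 6221 were higher on both day 3 arrays and 5053 on both day 5 arrays. Over all 30 members, 24 had a mean above 0, 14 were higher on all 4 arrays, where 12.6% of all genes tested were, and 0 were lower on all 4, where 13.3% of all genes were. Without day 3 the members' median was 0.52 with 28 of 30 above 0, and without day 5 it was 0.09 with 21 of 30 above 0.

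No gene passed limma's test for the deletion over both days (0 of 15987 with a limma adjusted p under 0.05, or 0% of genes). At an unadjusted p under 0.05, 790 genes were higher and 754 lower. Of the members, 11 were higher at that level and 0 lower, where 4.94% of all genes tested were higher. A fit on single arrays with the RNA pair as a random block called 263 genes (1.65% of those tested), 7 of them members (Hmgcs1, Fdft1, Lss, Cyp51, Msmo1, Sc5d and Insig1), while the deletion arrays fitted alone called 0. With a single day in the fit, and its lone RNA pair assumed to vary like the sorts, 15 of the 30 members were called on day 5, where 7.54% of all genes tested were (1205), and 13 on day 3, where 38.4% were (6138). The count of 14 members depended on the intensity-dependent dye correction: with each array only centred on its median, 23 of 30 members kept a mean above 0 but 0 were higher on all 4 arrays. With the scanner software's own corrected signals, 13 members were higher on all 4 arrays. The shares of all genes higher on all 4 arrays with median centring or with these signals were not counted.

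**Figure D1:**
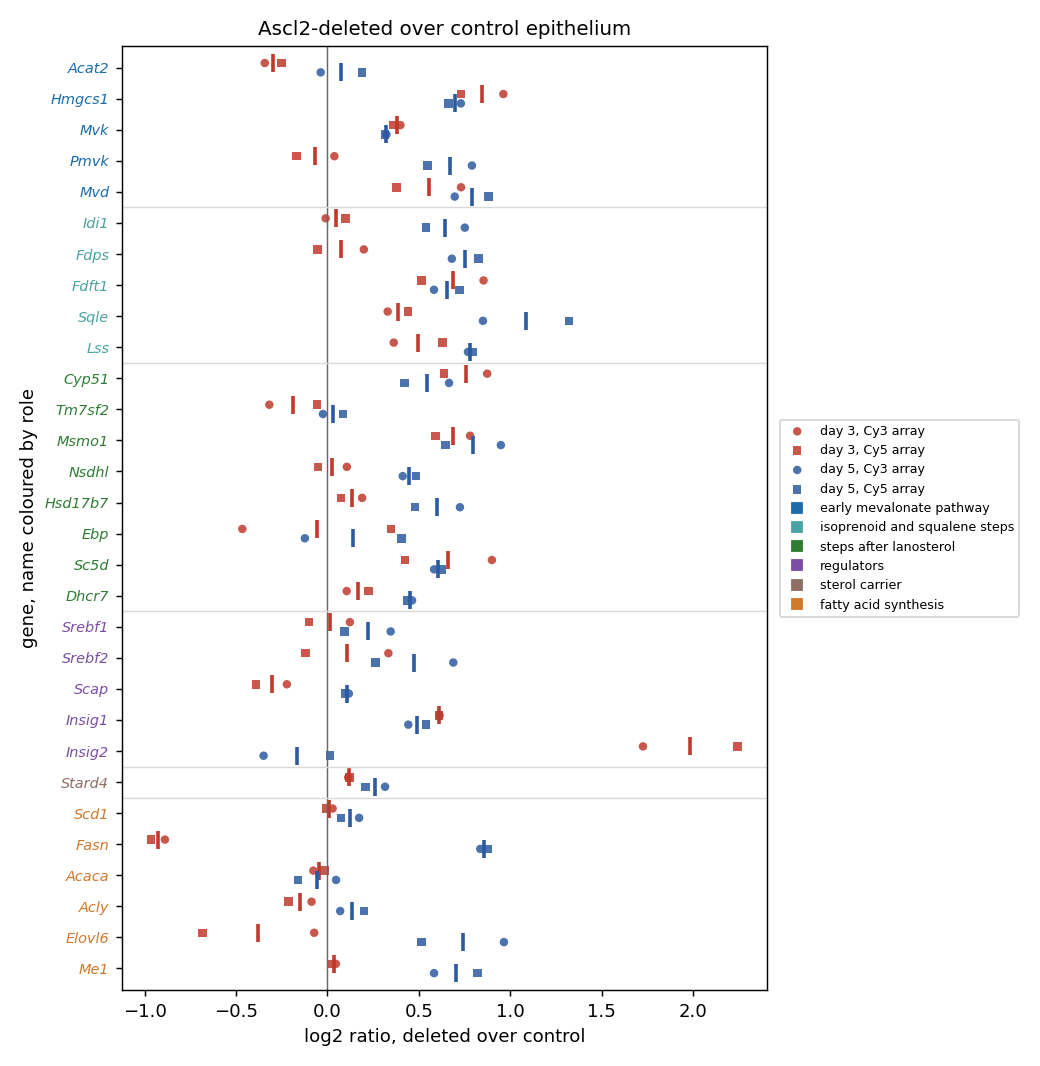
Log2 ratio of deleted over control epithelium for the 30 genes, grouped by role, with 1 point per array (circles, deleted RNA in Cy3; squares, deleted RNA in Cy5) and a bar at the mean of each day's 2 arrays. Most sterol enzymes lie right of 0 on both days, Insig2 lies far right on day 3 only, and Fasn lies left of 0 on day 3 and right of 0 on day 5.

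The sorted cells showed the opposite side. GFPhi cells had lower ratios than GFPlo cells in 23 of the 27 members tested, with a median of -0.12 (-0.14 in sort 1 and -0.11 in sort 2) where all genes tested had a median of 0.00. Of the 27, 11 were lower on all 4 sort arrays, where 17.1% of all genes tested were, and 0 were higher on all 4, where 16.5% of all genes were. No gene passed limma's test here either (0 of 10469, or 0%). At an unadjusted p under 0.05, 266 genes were higher and 266 lower, the sort arrays fitted alone called 73 genes (0.697%) and the random block fit called 38 (0.363%). Of the members, 4 were lower at that unadjusted level (Msmo1, Hmgcs1, Sc5d and Dhcr7), where 2.54% of all genes were. The random block fit called 1 member, Msmo1 (limma adjusted p = 0.0483), the sorts fitted alone called 0, and Msmo1 was again the 1 member called when either day of the deletion was left out of the common fit (limma adjusted p = 0.0468, with 126 genes, or 1.2%, called). With sort 1 alone, 17 of the 27 were lower on both arrays, with sort 2 alone 14, and with median centring in place of the dye correction 5 of the 27 were lower on all 4 arrays. The shares of all genes under these settings were not counted.

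The sterol enzymes are taken first in the order of their steps. In the early mevalonate pathway the gene with the largest deletion ratio was Hmgcs1, the synthase that makes HMG-CoA. Its log2 ratios were 0.96 and 0.73 on the day 3 arrays and 0.66 and 0.73 on the day 5 arrays, a mean of 0.77 ± 0.11 (SD, n = 2 RNA pairs) or 1.71-fold. All 4 arrays were on the same side and the days met at 0.73 (limma adjusted p = 0.384). In the sorts Hmgcs1 was at -0.25 and -0.17 in sort 1 and at -0.79 and -0.41 in sort 2, so that every array was below 0 and sort 2 lay further out. A dimmer Hmgcs1 probe that passed the filter in the sorts gave -0.11 in sort 1 and -0.002 in sort 2. Mvd, which decarboxylates mevalonate diphosphate, was at 0.73 and 0.38 on day 3 and at 0.88 and 0.70 on day 5, a mean of 0.67 ± 0.17. Mvk, mevalonate kinase, was at 0.40 and 0.36 on day 3 and at 0.31 and 0.32 on day 5, the tightest of the group, with a mean of 0.35 ± 0.04. In the sorts Mvk was at -0.09 and -0.51 in sort 1 and at -0.09 and -0.03 in sort 2, so that 1 array made most of its mean of -0.18 ± 0.17. The other Mvk probe gave -0.48 in sort 1 and -0.04 in sort 2. The next kinase, Pmvk, differed between the days, with means of -0.07 and 0.67, and Acat2, the cytosolic thiolase at the start of the pathway, had means of -0.30 and 0.08.

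Of the isoprenoid and squalene steps, all 5 genes had means above 0 on both days, and 3 of the 5 were higher on both day 3 arrays. Sqle, squalene epoxidase, a step known to limit the flow after squalene, was at 0.33 and 0.44 on day 3 and at 1.32 and 0.85 on day 5. Its mean was 0.74 ± 0.50, and the days did not overlap. In the sorts Sqle was at -0.63 and -0.33 in sort 1 and at -0.78 and -0.14 in sort 2, a mean of -0.47 ± 0.02, with all 4 arrays below 0 and the dye orientations further apart than the sorts. Fdft1, squalene synthase, was at 0.85 and 0.52 on day 3 and at 0.72 and 0.58 on day 5, a mean of 0.67 ± 0.02 and the lowest limma adjusted p among the members (0.362). Lss, which closes squalene epoxide into lanosterol, was at 0.36 and 0.63 on day 3 and at 0.80 and 0.77 on day 5, a mean of 0.64 ± 0.20. The other 2 Lss probes gave -0.10 and -0.12 on day 3 and 0.66 and 0.43 on day 5, so that the day 3 side of Lss depends on the probe. Fdps, which joins isoprenoid units into farnesyl diphosphate, had means of 0.07 on day 3 and 0.75 on day 5. In the sorts it was at -0.24 and -0.46 in sort 1 and at -0.43 and -0.32 in sort 2, a mean of -0.36 ± 0.02 with every array below 0. A dimmer Fdps probe that passed the filter gave -0.36 in sort 1 and -0.005 in sort 2. Idi1, the isomerase of the isoprenoid units, had means of 0.05 on day 3 and 0.65 on day 5, and its other probe gave -0.08 and 0.55.

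After lanosterol, 7 of 8 genes had a mean above 0 over both days. Msmo1, an oxidase that acts in the removal of methyl groups from the sterol ring, had the lowest sort ratio of all members. Its probe lies at chr8:67610377-67610436 (mm8, minus strand). It was at -0.62 and -0.60 in sort 1 and at -0.75 and -0.90 in sort 2, which gave a mean of -0.71 ± 0.15 or 1.64-fold lower in GFPhi cells (limma adjusted p = 0.646). After deletion it was at 0.78 and 0.59 on day 3 and at 0.65 and 0.95 on day 5, a mean of 0.74 ± 0.08. All 4 arrays of each comparison were on 1 side, and the sides were opposite. Cyp51, the demethylase that first acts on lanosterol, was at 0.87 and 0.64 on day 3 and at 0.42 and 0.67 on day 5, a mean of 0.65 ± 0.15, and its 3 probes gave means from 0.32 to 0.77 on either day. Sc5d, a desaturase near the end of the pathway, was at 0.90 and 0.42 on day 3 and at 0.63 and 0.58 on day 5, a mean of 0.63 ± 0.04. A dimmer Sc5d probe that passed the filter gave 0.79 on day 3 and 0.14 on day 5. In the sorts Sc5d was at -0.22 and -0.29 in sort 1 and at -0.26 and -0.17 in sort 2, a narrow range with a mean of -0.23 ± 0.03. Dhcr7, the last reductase before cholesterol, was at -0.38 and -0.30 in sort 1 and at -0.46 and -0.23 in sort 2, a mean of -0.34 ± 0.002. Its deletion means were 0.17 on day 3 and 0.45 on day 5. In the sorts a dimmer Dhcr7 probe that passed the filter gave -0.17 in sort 1 and -0.02 in sort 2. Of the others, Nsdhl and Hsd17b7 had day 5 means of 0.45 and 0.60 and day 3 means of 0.03 and 0.13. The other Hsd17b7 probe gave 0.50 on day 3 and 0.57 on day 5. Ebp, the sterol isomerase, followed the dye more than the day, at -0.47 and 0.35 on day 3 and at 0.41 and -0.12 on day 5. Tm7sf2, a sterol reductase, had means of -0.19 and 0.03, and 1 of its sort 2 spots was left out as an outlier.

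**Figure D2:**
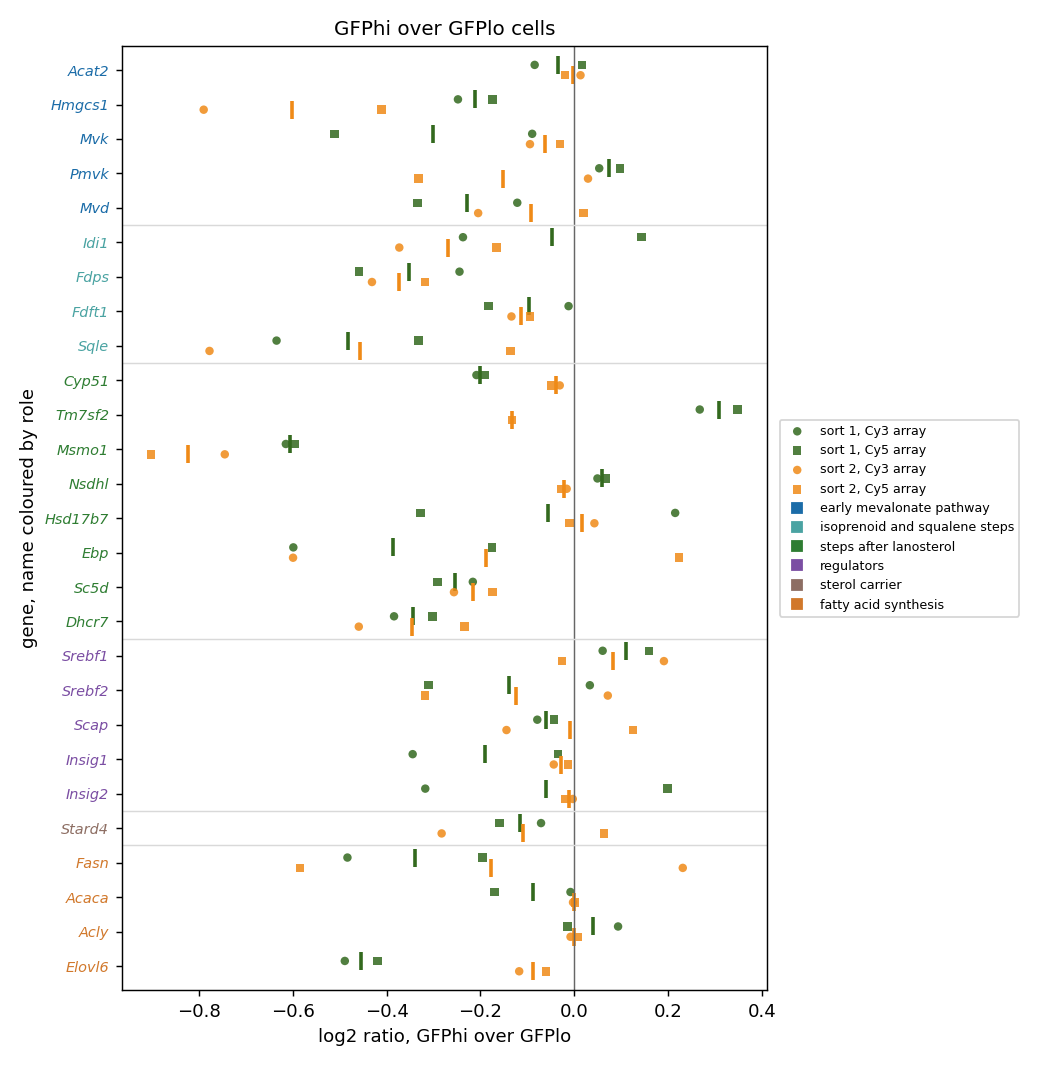
Log2 ratio of GFPhi over GFPlo cells for the 27 genes tested, grouped by role, with 1 point per array (circles, GFPhi RNA in Cy3; squares, GFPhi RNA in Cy5) and a bar at the mean of each sort. Msmo1, Sqle, Hmgcs1, Fdps and Dhcr7 lie left of 0 on all 4 arrays, and the regulators lie around 0.

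The stretches before the start sites of the 6 sterol enzymes with the largest deletion ratios and a window in RefSeq's promoter table (build GRCm38.p6) are printed to show what these genes share in sequence. Each run is the 200 bases up to the annotated start, 5′ to 3′ on the gene's strand. Capitals mark CCAAT, the box bound by NF-Y, on either strand, and in Hmgcs1 also TCACNCCAC, a form of the sterol regulatory element (SRE), the site that SREBPs bind.
Hmgcs1: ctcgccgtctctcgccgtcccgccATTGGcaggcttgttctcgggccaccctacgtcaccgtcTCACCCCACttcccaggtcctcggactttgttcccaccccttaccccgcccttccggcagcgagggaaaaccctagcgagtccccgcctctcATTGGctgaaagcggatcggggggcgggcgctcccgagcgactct
Msmo1: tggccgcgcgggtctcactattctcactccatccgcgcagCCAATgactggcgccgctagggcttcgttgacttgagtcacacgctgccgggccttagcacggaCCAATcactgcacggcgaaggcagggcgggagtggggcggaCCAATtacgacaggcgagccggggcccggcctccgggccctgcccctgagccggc
Mvd: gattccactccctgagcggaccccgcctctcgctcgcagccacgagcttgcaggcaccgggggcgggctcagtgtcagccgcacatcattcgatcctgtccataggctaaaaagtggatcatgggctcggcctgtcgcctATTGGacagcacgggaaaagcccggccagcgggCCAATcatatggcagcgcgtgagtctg
Cyp51: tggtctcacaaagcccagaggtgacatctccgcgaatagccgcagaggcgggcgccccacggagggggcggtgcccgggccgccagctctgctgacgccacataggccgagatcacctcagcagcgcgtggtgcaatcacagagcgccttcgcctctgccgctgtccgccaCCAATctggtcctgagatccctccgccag
Lss: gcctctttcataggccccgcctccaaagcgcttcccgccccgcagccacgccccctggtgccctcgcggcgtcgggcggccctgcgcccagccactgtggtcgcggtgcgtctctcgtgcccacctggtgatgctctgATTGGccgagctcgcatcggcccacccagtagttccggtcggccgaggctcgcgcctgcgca
Sc5d: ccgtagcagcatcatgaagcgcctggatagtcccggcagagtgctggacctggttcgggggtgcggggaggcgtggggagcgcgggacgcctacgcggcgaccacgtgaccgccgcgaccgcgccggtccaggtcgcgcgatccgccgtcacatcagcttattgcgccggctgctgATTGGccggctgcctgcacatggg
They lie at chr13:119690151-119690350 (plus strand) for Hmgcs1, chr8:64733579-64733778 (minus strand) for Msmo1, chr8:122443423-122443622 (minus strand) for Mvd, chr5:4104698-4104897 (minus strand) for Cyp51, chr10:76531405-76531604 (plus strand) for Lss and chr9:42264301-42264500 (minus strand) for Sc5d.

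The letters TCACNCCAC on either strand occurred in the 250 bases before the start in 1 of the 25 members with a window, Hmgcs1, where they begin 137 bases before the start, and in 1.22% of 27025 genes. With 1 more free base, TCACNCNAC, there were 2 members, Hmgcs1 and Nsdhl, against 2.65% of genes, and TCACGTGA, a palindromic site that SREBPs also bind, occurred in 0 members against 0.907% of genes. CCAAT occurred in 20 of the 25 members, in 14 of the 15 sterol enzymes and in 2 of the 5 genes of fatty acid synthesis, against 37.5% of all genes. GGGCGG, a box bound by Sp1, occurred in 21 of the 25 members and in 14 of the 15 sterol enzymes, against 35.4% of all genes. Both boxes also occur in many promoters unrelated to sterol, and these are matches of letters in a window and not measured sites. No window was found for Fdft1, Fdps, Sqle, Scd1 and Stard4.

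**Figure D3:**
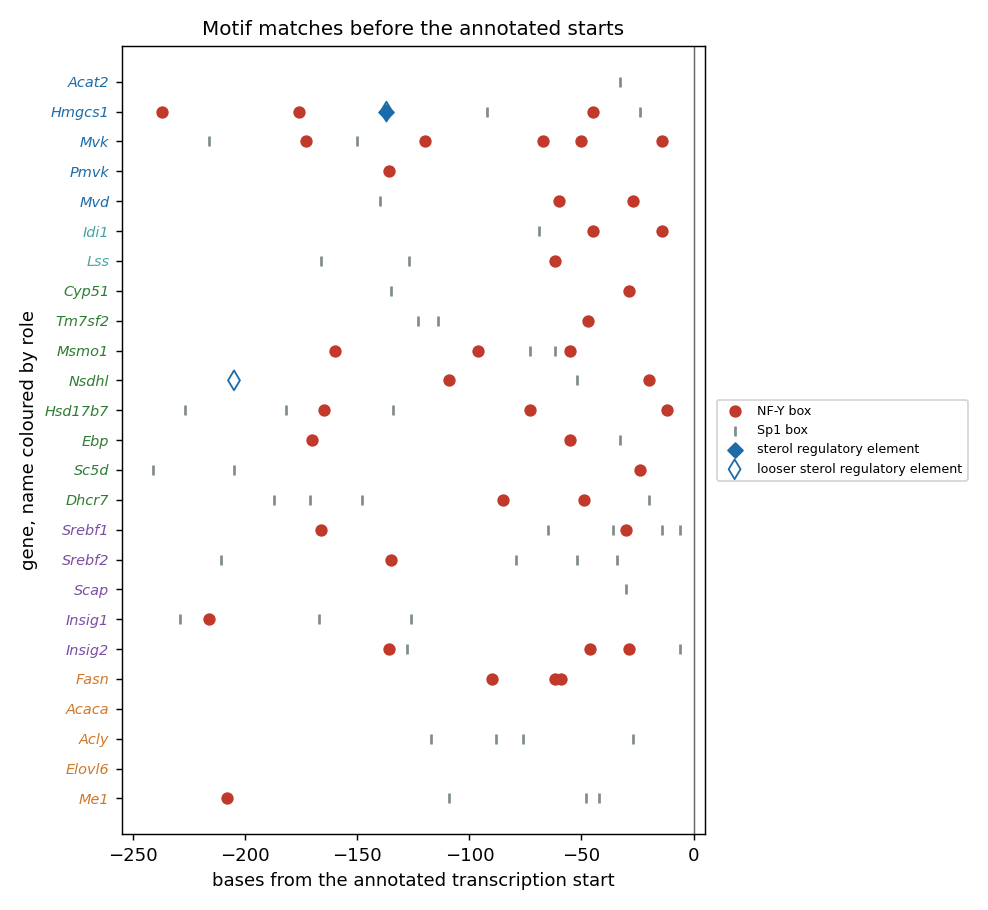
Matches of 4 motifs on either strand in the 250 bases before the annotated starts of the 25 genes with a window, as distance from the start in bases, with all windows of a gene on 1 row. NF-Y boxes lie in the last 200 bases before the start in most sterol enzymes, and the sterol regulatory element is matched only in Hmgcs1.

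The 5 regulators had medians of 0.11 on day 3 and 0.22 on day 5, and 1 of them was higher on all 4 deletion arrays. Srebf2, which encodes the SREBP of cholesterol genes, was at 0.33 and -0.12 on day 3 and at 0.26 and 0.69 on day 5, a mean of 0.29 ± 0.26 with 1 array below 0. In the sorts it was at 0.03 and -0.31 in sort 1 and at 0.07 and -0.32 in sort 2, so that its sign went with the dye. Srebf1 was at 0.12 and -0.10 on day 3 and at 0.09 and 0.35 on day 5, and at 0.06, 0.16, 0.19 and -0.03 on the sort arrays. Scap was at -0.22 and -0.39 on day 3 and at 0.10 and 0.12 on day 5, so that the days lay on opposite sides, and at -0.08, -0.04, -0.14 and 0.13 in the sorts. That one was Insig1, itself a known SREBP target. It was at 0.61 and 0.61 on day 3 and at 0.54 and 0.44 on day 5, a mean of 0.55 ± 0.09 (limma adjusted p = 0.384). In the sorts it was at -0.34 and -0.03 in sort 1 and at -0.04 and -0.01 in sort 2, below 0 on every array but near 0 on 3 of them. Its other probe gave 0.16 and 0.28 in the deletion, and -0.57 in sort 1 and -0.03 in sort 2.

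Insig2, the other gene for a protein that holds Scap back, is described because of its values. On day 3 it was at 1.73 and 2.24, a mean of 1.98 or 3.96-fold, and on day 5 it was at 0.02 and -0.35. This was the largest ratio of any member on any day. The day 3 arrays lay far above the day 5 arrays, and the difference, day 5 minus day 3, was -2.15 (limma adjusted p = 0.00294). A dimmer Insig2 probe that passed the filter gave 1.58 on day 3 and -0.01 on day 5. The brightest probe lies at chr1:123132054-123132113 (mm8, minus strand). In the sorts Insig2 had means of -0.06 and -0.01. Stard4, which carries sterol between membranes and is an SREBP target, was above 0 on all 4 deletion arrays, from 0.11 to 0.32, with a mean of 0.19 ± 0.10.

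Of the 6 genes of fatty acid synthesis, 3 lay on opposite sides on the 2 days. The median of the 6 was -0.10 on day 3 and 0.42 on day 5, and 4 of the 6 were lower on both day 3 arrays while 5 of the 6 were higher on both day 5 arrays. Of all 15987 genes tested, 6299 were lower on both day 3 arrays and 5053 higher on both day 5 arrays. Lower on both day 3 arrays and higher on both day 5 arrays were 3 of the 6 (Fasn, Acly and Elovl6), and 4 of the 30 members with Scap, where 13.3% of all genes tested were. Fasn, the fatty acid synthase itself, was at -0.89 and -0.96 on day 3 and at 0.88 and 0.84 on day 5, values that cancel in its mean of -0.03 ± 1.26. The difference was 1.78 (limma adjusted p = 0.00538), and its dimmer probe gave -0.50 and 0.45. Elovl6, which lengthens palmitate, was at -0.07 and -0.68 on day 3 and at 0.52 and 0.97 on day 5, a difference of 1.12 (limma adjusted p = 0.0248). Me1, the malic enzyme that supplies NADPH, was at 0.05 and 0.02 on day 3 and at 0.82 and 0.58 on day 5, a difference of 0.67 (limma adjusted p = 0.0205), and its other probe gave -0.51 on day 3 and 0.92 on day 5. Fasn, Elovl6 and Me1 are given array by array for the deletion because of these values. Acly, the ATP citrate lyase, had means of -0.15 and 0.14, Acaca, acetyl-CoA carboxylase, -0.05 and -0.06, and Scd1, a desaturase, 0.01 and 0.13, the last 2 on dim probes. In the sorts Elovl6 was at -0.49 and -0.42 in sort 1 and at -0.12 and -0.06 in sort 2, a mean of -0.27 ± 0.26 with all 4 arrays below 0. Fasn was at -0.48, -0.20, 0.23 and -0.58 there, with 1 array above 0.

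Between the days, 9 of the 30 members differed in limma's test, as did 4470 of all 15987 genes tested, a share close to that of the members. 8 of them had a higher ratio on day 5 (Pmvk, Idi1, Fdps, Sqle, Hsd17b7, Fasn, Elovl6 and Me1), where 15.6% of all genes tested did, and 1, Insig2, had a lower one, where 12.4% did. The differences of the 5 sterol enzymes ran from 0.47 for Hsd17b7 to 0.74 for Pmvk. That of Hsd17b7 depends on the probe, since its other probe was at 0.50 on day 3 and 0.57 on day 5. Hmgcs1, Mvk, Mvd, Fdft1, Lss, Cyp51, Msmo1, Sc5d, Dhcr7, Insig1 and Stard4 were higher on all 4 arrays and did not pass this test, with differences between -0.21 for Cyp51 and 0.29 for Lss. These are values of the brightest probes. For some genes, such as Lss and Sc5d, a dimmer probe lay further apart between the days. Each day rests on 1 RNA pair, and the test takes its spread from the sorts alone, whose median SD between pairs was 0.0811. It called no gene with the scanner software's corrected signals or with median centring alone. With the random block fit it called 3 of the 30 members (Insig2, Fasn and Me1) and 13.7% of all genes. With the series matrix it called 3 (Insig2, Fasn and Elovl6) and 12.2%, and with a normexp offset of 16 it called 4 (Insig2, Fasn, Fdps and Sqle) and 17.9%. The smallest of the 9 differences, of Hsd17b7 and Idi1, were called in 5 and 2 of the 12 settings tried. Over the 12 settings the difference ran from -2.17 to -1.87 for Insig2, from 1.37 to 1.86 for Fasn, from 0.67 to 1.05 for Me1 and from 0.27 to 0.57 for Hsd17b7.

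Markers of several other cell types differed with the day. On day 3 enterocyte markers had a median of 0.66 (13 of 15 higher, summed processed signal 1931000 to 2117000 in deleted and 1160000 to 1339000 in control RNA) and proliferation markers a median of -1.17 (0 of 17 higher, 141700 to 149200 against 305600 to 323000). On day 5 the same lists had medians of -0.44 and 0.03. T cell markers were higher on day 3, with a median of 1.08 over 7 genes and sums of 94690 to 97550 against 31110 to 33180. Fibroblast and smooth muscle markers had a median of -0.31 on day 3 and 4.41 on day 5 over 7 genes, with sums of 30220 to 33920 in deleted and 6882 to 8544 in control RNA on day 5. The collagen genes Col1a1 and Col3a1, named for their size, reached 4.81 and 5.11 on day 5. The smooth muscle genes of that list stayed near 0 on day 5, with Acta2 at 0.18 and Myh11 at -0.03. Of the adipocyte markers, Adipoq and Lep were never well above background in the deletion arrays, and the sums of that list were 60120 to 68600 against 40360 to 41880 on day 3 and 13110 to 13830 against 16790 to 17210 on day 5. Fabp4, the 1 of 6 tested adipocyte markers above 0 on day 5, was higher on all 4 arrays, at 0.21 on day 3 and 0.75 on day 5. The part of these cells in the day 5 ratios of Fasn, Elovl6, Me1 and the sterol enzymes was not tested. Crypt base stem cell markers were lower after deletion on both days, with medians of -1.08 and -0.42 (12 of 12 with a mean below 0, 10 on all 4 arrays), and B and plasma cell markers had medians of 0.69 and 0.16 over 4 genes. In the sorts the crypt base list was higher in GFPhi cells, with a median of 0.88 and 11 of 12 genes higher on all 4 arrays, the side opposite to that of Msmo1 and Sqle in both comparisons. Also in the sorts, goblet and enteroendocrine markers were lower in GFPhi cells, with medians of -1.68 and -1.26, while proliferation markers had a median of 0.04 and enterocyte markers one of -0.27, and the part of these cells in the members' sort ratios was not tested.

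**Figure D4:**
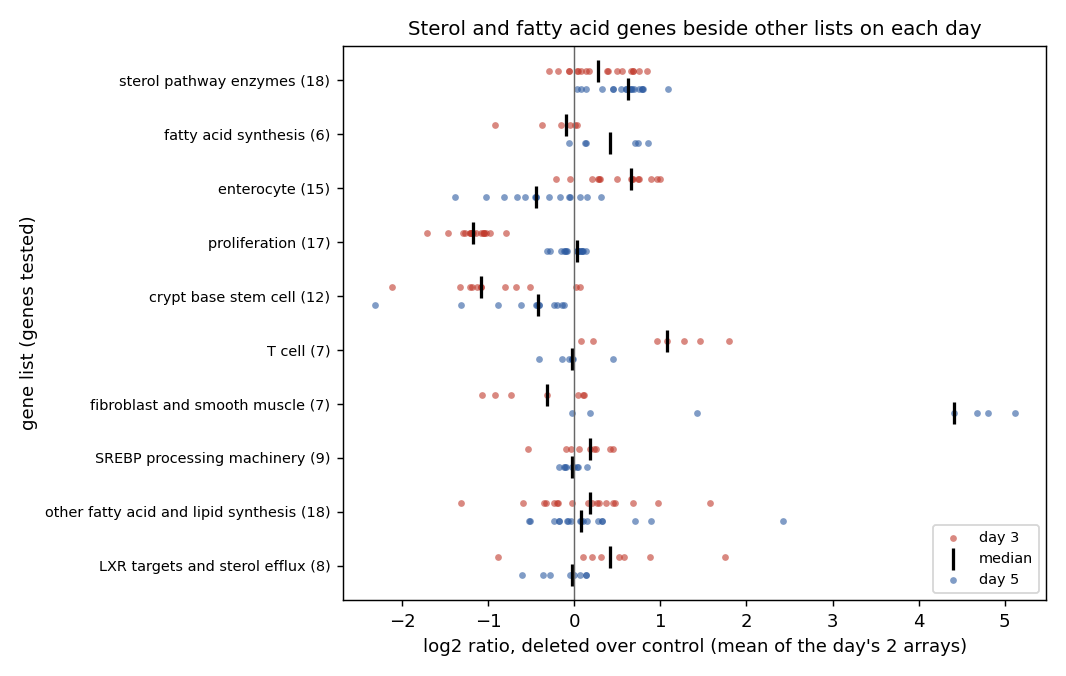
Log2 ratio of deleted over control epithelium, as the mean of the day's 2 arrays, for each tested gene of 10 lists (red, day 3; blue, day 5; black bar, list median). The sterol enzymes lie mostly right of 0 on both days, with a higher median on day 5. The enterocyte, proliferation and fibroblast lists change side or size between the days.

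The members low in GFPhi cells and those high after deletion overlapped. Lower on all 4 sort arrays and higher on all 4 deletion arrays were 9 of the 27 members tested in both (Hmgcs1, Mvk, Fdft1, Sqle, Cyp51, Msmo1, Sc5d, Dhcr7 and Insig1), where 2.95% of the 10341 genes tested in both were. These were 9 of the 11 members low on all sort arrays and 9 of the 14 members high on all deletion arrays, of which Lss and Me1 were not tested in the sorts. Across the 27 members, which share arrays and dyes, the mean ratios of the comparisons had a Pearson correlation of -0.469 and a Spearman correlation of -0.487, given as a description, and across all 10341 genes these were -0.149 and -0.159.

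**Figure D5:**
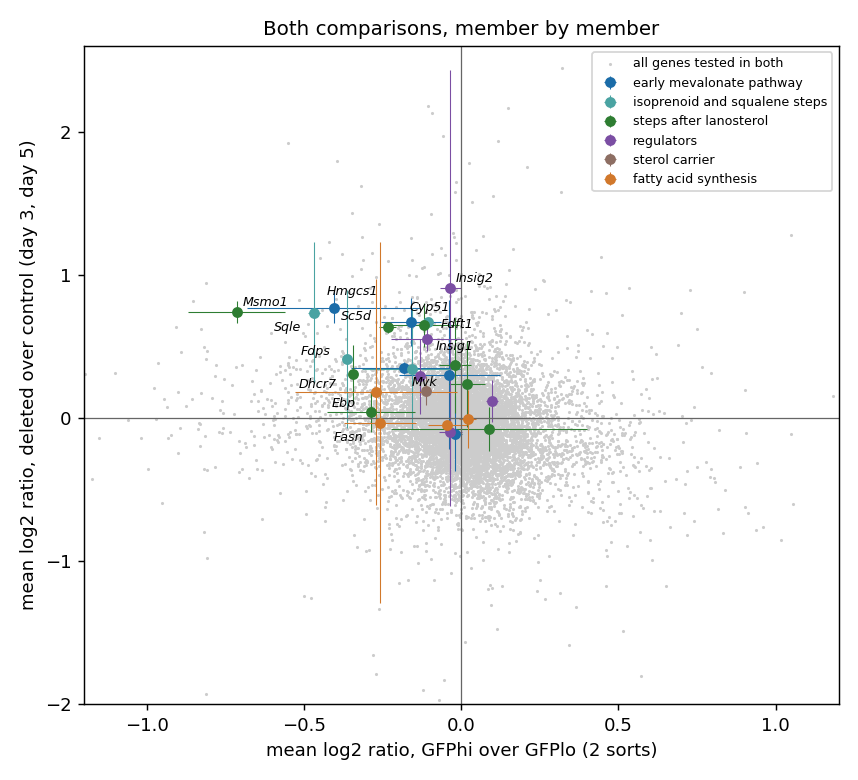
Mean log2 ratio of deleted over control epithelium against that of GFPhi over GFPlo cells for the 27 genes tested in both, coloured by role, with bars of ± 1 SD over the 2 RNA pairs and all other genes in grey (29 of 10341 genes lie outside the axes). The sterol enzymes gather at the upper left, and the wide bars of Insig2 and Fasn show their difference between the days.

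The other genes of the pathway, from lists chosen by function, are given as lists beside the members. Of the machinery that moves and cleaves SREBPs, 9 genes were tested in the deletion, with a median of 0.18 on day 3 and -0.02 on day 5, and 1 was higher on all 4 arrays, Sec24d, a coat protein of vesicles that leave the endoplasmic reticulum (0.41 and 0.05). Of 18 further genes of fatty acid and lipid synthesis, 12 had a mean above 0, 3 were higher and 2 lower on all 4 arrays, with medians of 0.19 and 0.07. Scd2, a desaturase named for its size, was at -1.32 on day 3 and 2.42 on day 5, the sides on which Fasn lay. Lpin2 lay on the other sides, at 1.58 on day 3 and -0.51 on day 5. The list held 4 genes lower on both day 3 arrays and higher on both day 5 arrays, and 5 the other way round. In the sorts 8 of its 18 were lower on all 4 arrays, among them Mogat2, which makes diacylglycerol for fat absorption, at -0.88 and -0.92, and Aacs, which turns acetoacetate into acetoacetyl-CoA, at -0.76 and -0.55. Of 6 genes that supply NADPH, Pgd was higher on all 4 deletion arrays, at 0.05 and 0.37, and its sort means were -0.39 and -0.34, not on the same side on every array. Among 8 genes of the sterol sensor LXR, its targets, sterol efflux and cholesterol esterification, 6 had a mean above 0 (day 3 median 0.42, day 5 median -0.03). Of the 8, 2 were higher on all 4 arrays, Nr1h3, which encodes an LXR (0.58 and 0.14), and Smpdl3a (0.31 and 0.14). Soat1, which esterifies cholesterol for storage, was at -0.88 and -0.36 after deletion and at 0.96 and 0.84 in the sorts, signs opposite to those of Msmo1 and Sqle in both comparisons. The branch that uses farnesyl diphosphate for other isoprenoids had a median of -0.13 on day 3 and -0.05 on day 5 over 11 genes. Of 11 genes of sterol trafficking, 2 were higher and 2 lower on all 4 deletion arrays, with medians of 0.10 and -0.06. The widest was Cav1, the gene of the membrane protein caveolin, at 0.72 on day 3 and 2.95 on day 5, the day on which the fibroblast list was at 4.41. Their means and counts are given without a test of the lists.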

How the data were processed

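Members and gene lists were chosen with earlier results of these data known. Trizol RNA was amplified and labelled with Cy3 or Cy5, per the labels' protocols. Arrays were read with Agilent Feature Extraction 9.5.3.1 (protocol GE2-v5_95_Feb07; probe positions on mouse build mm8), per the file headers. The deposited scanner files hold linear spot intensity, corrected signal intensity and a log10 ratio of red over green. Log2 ratios in the deposited matrix correlated with the scanner ratios at 0.972 or more in size; whether the authors centred them is unknown. The day 5 files are rounded to 3 significant digits and a spreadsheet altered some of their symbols, so names came from day 3 by feature number.

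Mean signals were background-corrected (normexp, offset 50) and loess-normalized within each array with control spots at weight 0. Ratios were turned by the labelled dyes, so that deleted epithelium or GFPhi cells are the numerator. Spots marked as outliers were left out, spots of a probe averaged, and the brightest probe of a gene kept. Dye-swapped arrays were averaged to 1 value per RNA pair. The 4 pairs entered 1 fit in limma 3.58.1 (R 4.3.3), with Benjamini-Hochberg adjustment over all genes tested and a threshold of 0.05. The fits were tested on simulated ratios in which every pair had the spread between the sorts. That spread is smaller than the one between the deletion pairs (median SD 0.0811 against 0.195), so the wider spread was not simulated. The offset compresses the ratios of dim probes. Array values are given for Srebf1, Srebf2, Scap, Insig1 and, per comparison, the 8 members with the largest mean among those with 1 sign on all 4 arrays. Of other lists, at most 3 genes per comparison are named by the same rule. Any other gene given with its values was chosen after they were seen. The number of arrays limits the precision.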

Additional observations from a re-analysis of the deposited data

Results flagged for a closer look

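In the sorts, 4 of 26 members with 4 values had 1 array far from the other 3, as a gap of 0.866 of the whole range for Mvk (-0.51 on 1 sort 1 array, -0.09 to -0.03 on the others), 0.842 for Pmvk (-0.33 on 1 sort 2 array, 0.03 to 0.10 on the others), 0.91 for Insig1 (-0.34 on 1 sort 1 array, -0.04 to -0.01 on the others) and 0.947 for Acaca (-0.17 on 1 sort 1 array, -0.01 to 0.00 on the others). Chance gives about 1 in 20 such gaps. For Mvk and Insig1, both counted as lower on all 4 arrays, the mean of the brightest probe rests mostly on that 1 array. Their other probes gave -0.48 for Mvk and -0.57 for Insig1 in sort 1, and -0.04 and -0.03 in sort 2.

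The deletion ratio differed between the days (day 5 minus day 3, limma adjusted p under 0.05) by 0.735 for Pmvk, 0.601 for Idi1, 0.682 for Fdps, 0.7 for Sqle, 0.469 for Hsd17b7, -2.15 for Insig2, 1.78 for Fasn, 1.12 for Elovl6 and 0.668 for Me1. Insig2 was alone among the 9 in being higher on day 3. The same test called 4470 of all 15987 genes tested, a share close to that of the 30 members. The difference of Hsd17b7 rests on its brightest probe and was not seen with its other probe.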

How the results depend on the processing

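Members were lower in GFPhi cells in 20 to 25 cases and higher after deletion in 21 to 28 under every setting tried. Calls were less stable. Between the days 4470 genes and 9 members were called, against 2861 and 4 with a normexp offset of 16, 1953 and 3 with the series matrix, 2186 and 3 with the RNA pair as a random block, 2670 genes with the mean of all probes, and 0 and 0 with processed signals or median centring. Genes called in the sorts numbered 0, 73 with the sorts fitted alone and 38 with the random block (0 to 126 with 1 RNA pair left out); in the deletion they numbered 0 and 263 with the block (0 to 6138). Members lower on every sort array numbered 5 with median centring (11 to 17 with a pair left out), and members higher on every deletion array 0 (14 to 25).

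The members' sort median was -0.17 with offset 16, -0.18 with processed signals, -0.19 with median centring, -0.29 with the matrix and -0.14 with a filter in both RNAs. Their day 3 median was -0.025 with median centring, 0.11 with the filter in both RNAs, 0.054 with the mean of probes and 0.040 with RefSeq names, and their day 5 median 0.64 with processed signals, 0.40 with median centring, 0.60 with the matrix and 0.45 with the mean of probes. For the sterol enzymes the sort median was -0.26 with no background subtraction, -0.36 with processed signals and -0.37 with the matrix (-0.21 to -0.15 by sort). Their day 3 median was 0.19 with processed signals, 0.12 with median centring and 0.15 with RefSeq names, and their day 5 median 0.43 with median centring. Signs turned on day 3 for Me1 (-0.0084 with processed signals, -0.11 with median centring, -0.24 with the mean of probes) and Lss (-0.10 with RefSeq names), and with median centring for Hsd17b7 (-0.034) and Stard4 (-0.031) on day 3 and Srebf1 (-0.026) and Scap (-0.13) on day 5. Median centring lacks the dye correction by intensity; otherwise the cause was not tested. A block for slide or scan equals that for the RNA pair and was not run apart, and the day difference could not be fitted with a pair left out or with the deletion alone. No paired analysis was possible because the deletion arrays carry no replicate number in the labels, so that no number pairs samples across groups; each array already pairs its 2 RNAs.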
